A study of Mus musculus with 12 samples.

Results

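The 9 genes described here were listed as neutrophil markers and taken by symbol from the 18505 genes of an RNA-seq table of mouse back skin. They are Csf3r, Fpr1, Fpr2, Trem1, Itgam, Clec4d, Clec4e, Mpo and Wfdc21. The name is that of the list, and Mpo and Wfdc21 were lowest in the group where the other 7 were highest. The first 7 encode receptors and other surface proteins, and Mpo and Wfdc21 encode a granule enzyme and a small secreted protein. The table holds 12 samples of wild-type BALB/c skin taken on day 10, with 4 samples in each of 3 groups. The mice were male and 5 to 6 weeks old. In the IMQ + NS group the shaved back received a daily imiquimod (IMQ) cream, which brings on psoriasis-like lesions, followed by a cover of normal saline (NS). In the IMQ + BZLF group the same cream was followed by Banzhilian formula (BZLF), a mixture of Chinese medicinal materials applied to the skin, at a dose that the sources do not state for the sequenced samples. By the study's methods, both covers were held in place with gauze and a polyurethane film. The control group had petroleum jelly and no cream, and no cover is described for it. In a comparison with control skin the cream and the cover thus cannot be told apart. None of the groups carried a genetic change. Nothing in the sources says which samples came from separate mice, so a p-value measures the spread between these samples.

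Neutrophils are short-lived white cells that leave the blood and collect in the epidermis of psoriatic skin. They find their way with receptors for bacterial peptides and chemokines, attach through beta 2 integrins, and release ready-made proteins from granules. The granules are filled in the bone marrow in a fixed order, so that myeloperoxidase and the serine proteases of the azurophil granules are transcribed mainly in early precursors, while receptors such as Csf3r and Fpr1 are transcribed in mature cells. Several of the receptor genes are also used by monocytes and macrophages.

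Levels are given as FPKM, a count of sequenced fragments divided by transcript length and by the depth of the sample, so that levels can be compared between genes. The FPKM values of all but 1 gene could be turned back into whole numbers of reads, and the totals ran from 38258231 to 40967094 reads per sample. Differences between groups are log2 fold changes of FPKM + 0.1 from limma, fitted over 15288 genes with Benjamini-Hochberg adjustment, and a call needed both an adjusted p under 0.05 and a log2 fold change beyond 1 in either direction. The constant of 0.1 understates the change of genes with a low FPKM. Beside limma, an exact two-sided permutation test of 4 samples against 4 was run for each gene, and the smallest p it allows is 0.0286.

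The fit took in genes whose FPKM averaged 0.1 or more across the 12 samples, and all 9 genes passed. Trem1 passed it only through the IMQ + NS group, so its difference from the other groups was in part set by the filter. The skin identity genes were present in every sample, among them Krt5 with 657 ± 82.9 FPKM (SD, n = 4) in control skin. Control replicate 2 stood apart from the other controls, with a score of -63.2 on the first principal component against -116 to -122. Without it, the calls of all 9 genes in IMQ + NS against control samples were the same, and the log2 fold changes ran from -2.78 for Mpo to 3.31 for Clec4d. In bulk skin, fewer cells of a type and less RNA per cell cannot be told apart.

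The promoters of 8 of the 9 genes are held in RefSeq for GRCm38.p6, the assembly that mm10 stands for. The 250 bases before the start were searched on both strands for the core of the motif of PU.1, a transcription factor of myeloid cells, written as GAGGAA. It lies in the promoters of 7 genes, all but Fpr1, and in 23.3% of 32851 promoters of the same length. The motif of C/EBP factors, TTGCNNAA, lies in the Clec4e promoter alone among the 8 and in 9.56% of all promoters. The AP-1 motif TGANTCA and the NF-kappa B motif lie in 0 of the 8, and in 6.75% and 1.41% of all promoters. A match is a run of letters and not a binding site. The 250 bases of Csf3r (126024409-126024658) lie inside the gene span given below, and those of Trem1 (48232489-48232738) run past the first base of its span. The start used for the promoters of these genes thus differs from that of the span. The promoters of 2 receptor genes and of Mpo are shown because the same letters stand before genes whose levels moved in opposite directions, with the PU.1 and C/EBP matches in capitals on the strand of the gene (TTCCTC is the PU.1 core read from the other strand). No match overlaps another.
Itgam (chr7:128062390-128062639, plus strand): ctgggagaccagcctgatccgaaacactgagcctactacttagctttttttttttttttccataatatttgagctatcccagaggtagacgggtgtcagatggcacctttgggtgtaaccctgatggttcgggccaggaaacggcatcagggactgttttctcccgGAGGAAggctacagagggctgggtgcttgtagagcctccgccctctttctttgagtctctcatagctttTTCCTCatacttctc
Clec4e (chr6:123289872-123290121, minus strand): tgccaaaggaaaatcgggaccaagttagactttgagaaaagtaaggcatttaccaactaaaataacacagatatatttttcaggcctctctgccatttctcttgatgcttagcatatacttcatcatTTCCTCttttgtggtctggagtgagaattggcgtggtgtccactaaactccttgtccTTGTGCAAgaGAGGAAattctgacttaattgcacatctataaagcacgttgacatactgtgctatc
Mpo (chr11:87793534-87793783, plus strand): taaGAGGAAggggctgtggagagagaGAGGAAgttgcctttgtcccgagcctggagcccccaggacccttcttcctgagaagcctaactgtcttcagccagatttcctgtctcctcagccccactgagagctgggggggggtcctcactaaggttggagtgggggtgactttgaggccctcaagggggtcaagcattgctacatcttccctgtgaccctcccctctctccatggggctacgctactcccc

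Psoriasis-like lesions were compared with normal skin in the IMQ + NS and control samples. All 7 receptor and surface genes were higher in the lesions and both Mpo and Wfdc21 were lower. In none of the 9 did the 2 groups overlap, but the share of all genes without overlap was not counted. The rise ran from 2.19-fold for Itgam to 14.5-fold for Clec4d in the ratio of mean FPKM, with Trem1 higher still from a level near 0 in control skin. Mpo was 6.83-fold and Wfdc21 2.25-fold lower. Over all genes tested, 11.4% were called higher and 11% were called lower in this comparison. Without Trem1, whose difference was in part set by the filter, 6 of 6 receptors were called higher.

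**Figure D1:**
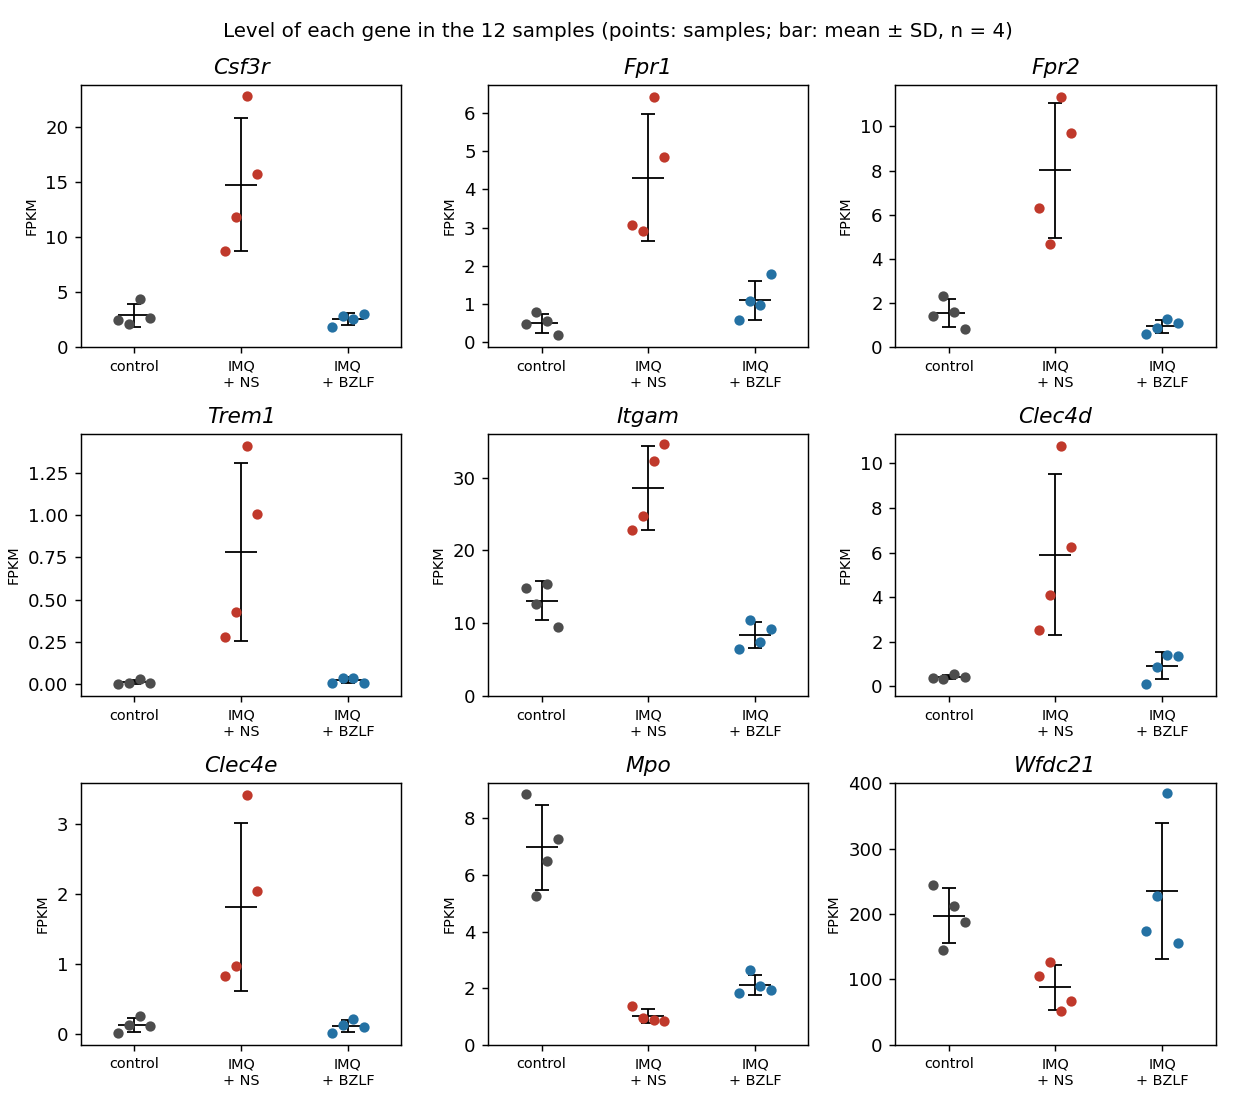
FPKM of each of the 9 genes (y axis, linear) in the 12 samples, by group. Points are samples and bars are the mean ± SD of 4 samples. The 7 receptor and surface genes are highest in the IMQ + NS samples, Mpo is highest in the control samples, and Wfdc21 is lowest in the IMQ + NS samples.

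Csf3r encodes the receptor for granulocyte colony-stimulating factor, which drives the production and survival of neutrophils, and lies on chromosome 4 (126023441-126044975, GRCm38.p6). Its FPKM was 2.43, 2.09, 4.36 and 2.66 in control samples, and 8.76, 11.8, 22.8 and 15.7 in IMQ + NS samples. It was 1.82, 2.80, 2.53 and 3.03 in IMQ + BZLF samples. The lowest IMQ + NS sample held about 2 times the FPKM of the highest control, and the IMQ + BZLF samples lay within the range of the controls except for 1 sample just below it. In lesions under saline Csf3r rose by 2.28 on the log2 scale (SE 0.31, limma adjusted p = 4.2e-04, exact permutation p = 0.0286). With BZLF in place of saline it fell by 2.43 (SE 0.27, limma adjusted p = 0.0021). Between IMQ + BZLF and control samples its log2 fold change was -0.14, with a 95% confidence interval from -0.70 to 0.41.

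Fpr1 and Fpr2 are neighbours on chromosome 17 (17876471-17883939 and 17887824-17893952), with 3884 bases between them. Both encode G protein-coupled receptors for formylated peptides, which bacteria and damaged mitochondria release, and Fpr2 also binds serum amyloid A and annexin A1. They belong to a family of similar genes, and how the counting divided reads between the copies is not known.
Fpr1 had 0.473, 0.775, 0.541 and 0.175 FPKM in control samples, 3.06, 2.90, 6.43 and 4.84 in IMQ + NS samples, and 0.565, 1.06, 0.958 and 1.79 in IMQ + BZLF samples. Fpr2 had 1.43, 2.33, 1.6 and 0.835 FPKM in control samples, 6.31, 4.68, 11.3 and 9.69 in IMQ + NS samples, and 0.596, 0.843, 1.25 and 1.09 in IMQ + BZLF samples. Both were high in all 4 IMQ + NS samples, but Fpr1 was above Fpr2 only in IMQ + BZLF replicates 2 and 4. In lesions Fpr1 rose by 2.94 (SE 0.38, limma adjusted p = 3.2e-04) and Fpr2 by 2.30 (SE 0.35, limma adjusted p = 6.7e-04) on the log2 scale. Under BZLF, Fpr1 fell by 1.91 (SE 0.34, limma adjusted p = 0.014) and Fpr2 by 2.92 (SE 0.30, limma adjusted p = 0.0015).

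Trem1, on chromosome 17 (48232713-48246927), encodes a receptor that amplifies inflammatory signals in neutrophils and monocytes through the adaptor Tyrobp. It was the lowest of the 9 genes in each group. The reads behind it numbered 0, 1, 4 and 1 in control samples, 40, 59, 205 and 146 in IMQ + NS samples, and 1, 5, 5 and 1 in IMQ + BZLF samples. Pooled over a group, this was 0.0105 FPKM in control skin (95% exact Poisson interval 0.0039 to 0.0229) and 0.786 FPKM in IMQ + NS samples (0.715 to 0.862). It was 0.0211 FPKM in IMQ + BZLF samples (0.0109 to 0.0369), and these intervals cover counting error only. Lesions under saline thus held nearly all reads of the gene, and the intervals of the control and IMQ + BZLF groups overlapped. The log2 fold change, held down by the constant of 0.1, was 2.79 in IMQ + NS against control samples (limma adjusted p = 6.8e-04) and -2.66 with BZLF against saline (limma adjusted p = 0.0090).

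Itgam, on chromosome 7 (128062640-128118491), encodes CD11b, the alpha chain of the integrin Mac-1, which macrophages carry too. It had 14.8, 12.6, 15.4 and 9.5 FPKM in control samples, 22.8, 24.8, 32.3 and 34.6 in IMQ + NS samples, and 6.41, 10.5, 7.35 and 9.26 in IMQ + BZLF samples. Itgam was the most abundant of the 7 in every group and changed least between lesions and normal skin. The rise in lesions was 1.12 on the log2 scale (SE 0.19, limma adjusted p = 0.0011), and without control replicate 4 it was 0.98, under the limit of 1. With BZLF it fell by 1.76 (SE 0.18, limma adjusted p = 0.0015). Against control skin the IMQ + BZLF samples had a log2 fold change of -0.64 (95% confidence interval -1.09 to -0.19, limma adjusted p = 0.024), which is under the fold limit, and the groups overlapped in 1 sample of each. Its beta chain partner Itgb2 had 13.2 ± 2.72 FPKM (SD, n = 4) in normal skin, 25.9 ± 6.75 in lesions under saline and 7.71 ± 1.6 in lesions under BZLF.

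Clec4d and Clec4e lie on chromosome 6 (123262107-123275268 and 123281789-123289871), 6520 bases apart. They encode the C-type lectin receptors MCL and Mincle, which bind glycolipids of mycobacteria and fungi and signal through Fcer1g, Syk and Card9. Clec4d had 0.356, 0.337, 0.536 and 0.405 FPKM in control samples, 2.51, 4.09, 10.8 and 6.23 in IMQ + NS samples, and 0.0964, 0.877, 1.38 and 1.33 in IMQ + BZLF samples. Clec4e had 0.0166, 0.124, 0.263 and 0.111 FPKM in control samples, 0.825, 0.971, 3.41 and 2.03 in IMQ + NS samples, and 0.0171, 0.129, 0.219 and 0.0972 in IMQ + BZLF samples. IMQ + BZLF replicate 1 was low for both, with 5 reads of Clec4d and 2 of Clec4e. In lesions Clec4d rose by 3.38 (SE 0.39, limma adjusted p = 1.7e-04) and Clec4e by 2.96 (SE 0.48, limma adjusted p = 0.0010) on the log2 scale. With BZLF, Clec4e fell by 3.03 (SE 0.45, limma adjusted p = 0.0078).
Clec4d fell by 2.71 (SE 0.67, limma adjusted p = 0.045), close to the threshold. The call was lost without any one of IMQ + NS replicates 2, 3 and 4 (limma adjusted p = 0.078, 0.13 and 0.11) or IMQ + BZLF replicates 2, 3 and 4 (0.11, 0.061 and 0.054). It was also lost with limma-voom on the recovered reads (adjusted p = 0.072), with 0.01 in the logarithm (limma adjusted p = 0.064), without a filter on low values (0.097), with median ratio scaling (0.050) and with variances without a trend (0.076). The call thus held in 10 of 21 alternatives, and the log2 fold change stayed between -3.05 and -1.76 in all 21.

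Mpo, on chromosome 11 (87793784-87804412), encodes myeloperoxidase, the enzyme of azurophil granules that makes hypochlorous acid. It had 8.86, 5.26, 6.48 and 7.29 FPKM in control samples, 1.39, 0.955, 0.889 and 0.852 in IMQ + NS samples, and 1.84, 2.64, 2.08 and 1.95 in IMQ + BZLF samples. The 3 groups did not overlap, with control skin highest and lesions under saline lowest. These values rest on 536 to 901 reads per control sample, 87 to 142 per IMQ + NS sample and 182 to 258 per IMQ + BZLF sample. Mpo fell by 2.66 on the log2 scale in lesions (SE 0.20, limma adjusted p = 1.8e-05, exact permutation p = 0.0286). Under BZLF it rose by 1.0 (SE 0.17, limma adjusted p = 0.012), a value that lies at the fold limit. Without any one of IMQ + NS replicates 2, 3 and 4 the rise was 0.98, 0.95 and 0.93, without IMQ + BZLF replicate 2 it was 0.90, and each of these is under the limit with an adjusted p below 0.05. Mpo was the only one of the 9 genes called between IMQ + BZLF and control samples, at -1.66 (SE 0.18, limma adjusted p = 2.0e-04).

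Wfdc21, also on chromosome 11 (83746940-83752646), encodes a small secreted protein with a WAP domain, which is known from fat cells as well. It had 245, 146, 212 and 188 FPKM in control samples, 105, 127, 51.5 and 67.6 in IMQ + NS samples, and 174, 228, 385 and 156 in IMQ + BZLF samples. It was the most abundant of the 9 genes in every sample, and IMQ + BZLF replicate 3 was the highest of all. Wfdc21 fell by 1.23 on the log2 scale in lesions (SE 0.28, limma adjusted p = 0.0060) and rose by 1.42 with BZLF against saline (SE 0.34, limma adjusted p = 0.042). The rise was not called without IMQ + NS replicate 1, 3 or 4 (limma adjusted p = 0.052, 0.10 and 0.11) or IMQ + BZLF replicate 2 or 3 (0.11 and 0.080), with log2 fold changes from 1.15 to 1.53. The call was also lost without a filter on low values, with variances without a trend and with the replicate number as a block. It held in 13 of 21 alternatives. Against control skin the log2 fold change after BZLF was 0.19, with a 95% confidence interval from -0.45 to 0.82.

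BZLF on lesions was compared with saline on lesions, a contrast that shares the IMQ + NS samples with the one above. The 7 receptor and surface genes were lower after BZLF, by 3.41-fold for Itgam to 15.7-fold for Clec4e in the ratio of mean FPKM with Trem1 left aside, and Mpo and Wfdc21 were higher. Among all genes tested 2.2% were called lower and 0.321% were called higher, against 7 and 2 of these 9. The calls of Clec4d, Mpo and Wfdc21 were lost in some of the alternatives, as given above. The 7 include Trem1, whose difference was in part set by the filter, and without it 6 of 6 receptors were called lower. The exact permutation p was 0.0286 for each gene, the smallest that 4 samples against 4 allow. Any gene whose groups do not overlap reaches it, and the share of all genes that do was not counted. In BZLF-treated lesions against normal skin neither limma nor limma-voom on the recovered reads called a receptor, with 9.65% of all genes called higher and 10.1% called lower. At an unadjusted p below 0.05 with the fold limit, Fpr1 was the only receptor to pass, with a log2 fold change of 1.03 (95% confidence interval 0.10 to 1.96, limma adjusted p = 0.060). Fpr1 was called without control replicate 2 (1.26, limma adjusted p = 0.023) or IMQ + BZLF replicate 1 (1.28, limma adjusted p = 0.036), and without the latter Clec4d was called too (1.34, limma adjusted p = 0.0029). Fpr1 was also called with median ratio scaling (1.05, limma adjusted p = 0.044), with quantile normalization (1.04, limma adjusted p = 0.032) and with all 12 samples in one fit (1.03, limma adjusted p = 0.040). The intervals for Clec4d and Clec4e reached from -0.68 to 2.02 and from -0.99 to 0.87, so smaller differences of these genes from normal skin were not detectable at this spread.

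**Figure D2:**
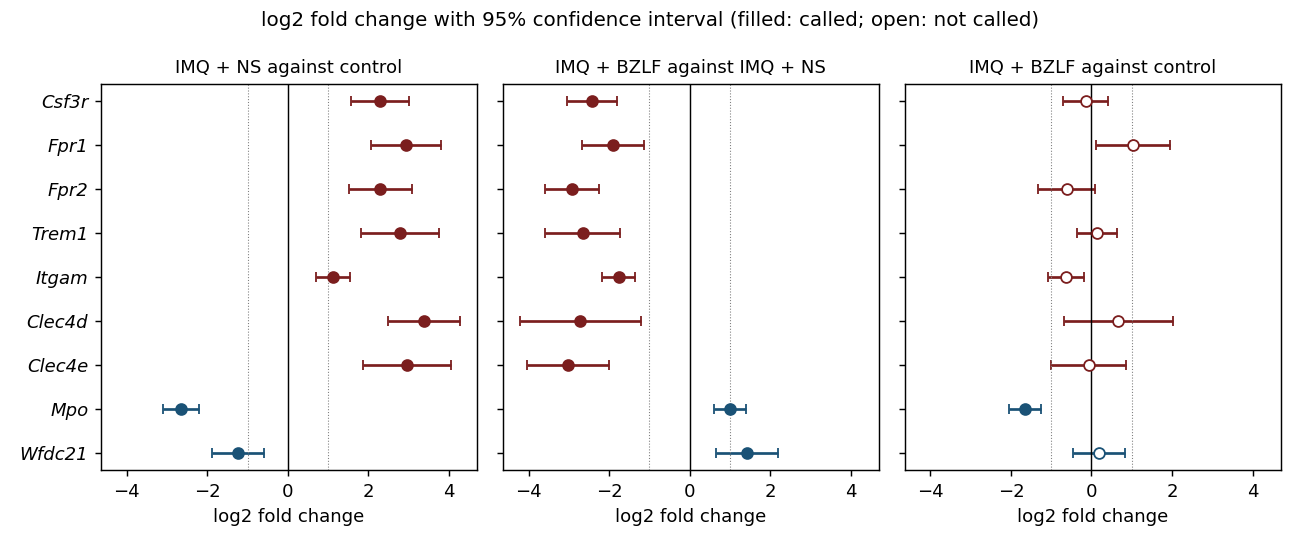
log2 fold change of FPKM + 0.1 (x axis) of the 9 genes in the 3 comparisons, with 95% confidence intervals from limma on 4 samples per group. Dotted lines mark -1 and 1, filled points are called and open points are not. The 7 receptor genes lie above 1 in lesions against control skin and below -1 after BZLF, and Mpo alone is called against control skin after BZLF.

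The ratio of a receptor to Mpo within a sample removes the scaling of the sample. Csf3r stood at 0.427 times Mpo on average in control skin (0.274 to 0.674), 15.7 times in IMQ + NS samples (6.32 to 25.7) and 1.20 times in IMQ + BZLF samples (0.987 to 1.56). Itgam went from 1.94 times Mpo in control skin to 29.8 times under saline and 3.94 times under BZLF. For Csf3r, Fpr1 and Itgam the 3 groups did not overlap in this ratio, and the IMQ + BZLF samples lay between the others. Mpo itself averaged 2.13 FPKM after BZLF against 6.97 in control skin, which raises the ratio there. Over Wfdc21, Csf3r averaged 0.0147 in control skin, 0.213 under saline and 0.0122 under BZLF. In the same order Itgam averaged 0.0676, 0.388 and 0.0403, and Fpr1 0.00268, 0.0621 and 0.00546. In rank by mean FPKM, Mpo was the third of the 9 genes in control skin, the eighth in lesions and the fourth after BZLF, and among the receptors only Fpr1, Fpr2 and Clec4d changed places with each other. IMQ + NS replicate 3 was the highest of its group for 6 of the 7 receptors, and IMQ + BZLF replicate 1 was the lowest of its group for 6. The highest of the IMQ + BZLF samples was replicate 2 for 2 receptors, replicate 3 for 3 and replicate 4 for 2, and the lowest control was replicate 1 for 2, replicate 2 for 2 and replicate 4 for 3.

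**Figure D3:**
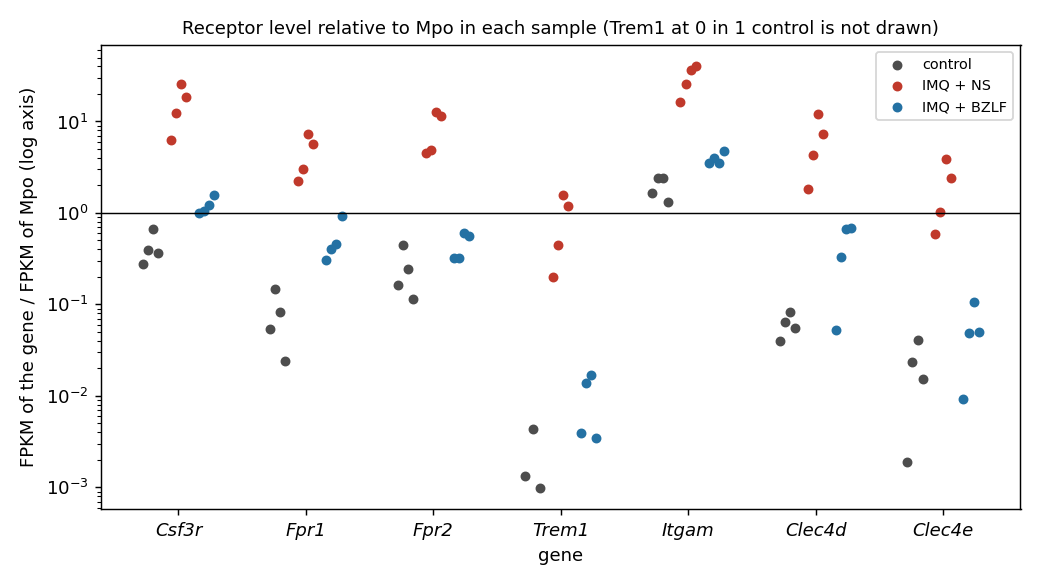
FPKM of each receptor or surface gene divided by the FPKM of Mpo in the same sample (y axis, log scale), with 1 point per sample and colours for the 3 groups. The IMQ + NS samples lie highest for each gene, and those of Csf3r reach from 6.32 to 25.7.

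Mpo was next set beside the other granule genes, of which 20 of 23 could be tested. In lesions 13 of them were called higher and 1 lower, with a median log2 fold change of 3.26 against 0.05 over all genes tested. One of the 13, Olfm4, passed the filter only through the IMQ + NS group. The neutrophil calprotectin genes S100a8 and S100a9, which keratinocytes also express, rose from 14.7 ± 3.96 and 15.6 ± 3.92 FPKM (SD, n = 4) to 3010 ± 1387 and 2909 ± 1452. Stfa3, a cysteine protease inhibitor with near copies, rose from 8.03 ± 1.63 to 1960 ± 547 FPKM. Lysozyme 2 (Lyz2), which macrophages express strongly, had 1091 ± 173 and 668 ± 150 FPKM and was not called. Genes of granule proteins made late in neutrophil development were among those that rose. Lactoferrin (Ltf) rose from 0.0485 ± 0.0304 to 2.08 ± 0.451 FPKM and Ngp from 0.256 ± 0.206 to 8.86 ± 1.65 FPKM. Mmp9, another granule gene of the list, had 5.44 ± 1.48 FPKM in control and 6.28 ± 3.57 in IMQ + NS samples, and its groups overlapped. These genes were named after their values were seen, and a difference between early and late granule genes was not tested. With BZLF against saline 16 of the 20 were called lower, with a median of -2.57 against -0.02 over all genes.

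The 1 granule gene called lower in lesions was Prtn3, which encodes proteinase 3, an azurophil granule protease like the products of Elane and Ctsg. Prtn3 had 11.4, 9.0, 15.8 and 17.5 FPKM in control samples, 3.68, 6.45, 4.63 and 4.95 in IMQ + NS samples, and 3.02, 4.5, 3.86 and 3.62 in IMQ + BZLF samples. It fell by 1.41 on the log2 scale in lesions (SE 0.24, limma adjusted p = 0.0012) and its log2 fold change after BZLF was -0.37 (limma adjusted p = 0.24), where Mpo rose. Elane and Ctsg, which were looked at after the value of Prtn3 was seen, had 0.340 ± 0.284 and 0.588 ± 0.400 FPKM in control and 0.701 ± 0.377 and 0.980 ± 0.287 FPKM in IMQ + NS samples. Neither passed the test in lesions (log2 fold changes 1.0 and 0.77, limma adjusted p = 0.12 and 0.11). Mpo and Prtn3 were thus lower in lesions, where the means of Elane and Ctsg were higher, and the difference between these genes was not tested.

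**Figure D4:**
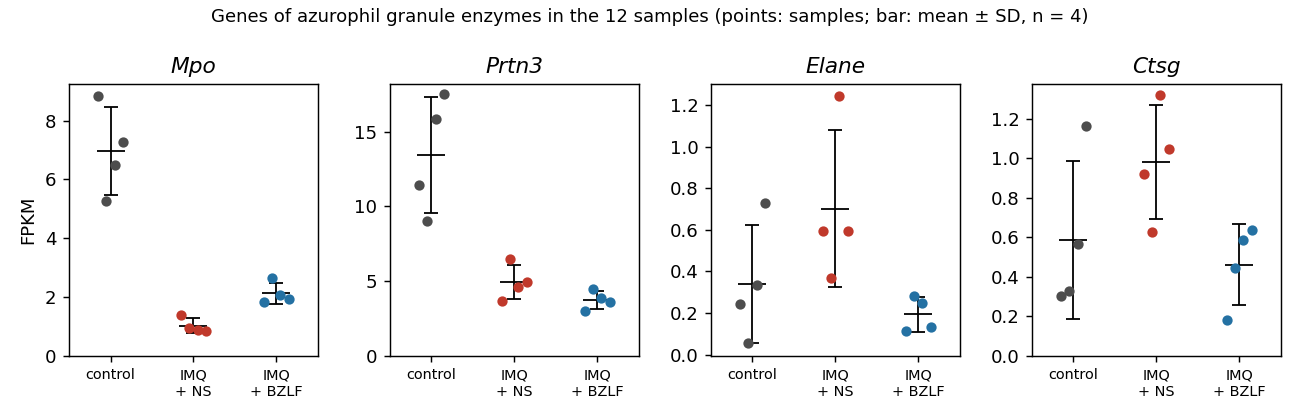
FPKM (y axis, linear, a separate scale for each gene) of Mpo, Prtn3, Elane and Ctsg in the 12 samples, with points for samples and bars for the mean ± SD of 4 samples. Mpo and Prtn3 are highest in control samples, while Elane and Ctsg stay below 1.4 FPKM in all samples.

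Of 29 other surface and signalling genes of neutrophils that were tested, 13 were called higher and 1 lower in lesions, with a median log2 fold change of 0.94. After BZLF against saline 18 were called lower, with a median of -1.26. Cxcr1, Ly6g, Cd177, Trem3 and Treml2 passed the filter on low values only through the IMQ + NS group, so their differences were in part set by it. Over the other 24 genes, 9 were called higher and 1 lower in lesions (median 0.72), and 14 were called lower with BZLF against saline (median -1.19). Ly6g, the defining surface marker of mouse neutrophils, was close to 0 in control skin with 0 or 1 read per sample, and had 42, 17, 53 and 16 reads in IMQ + NS and 1, 2, 0 and 17 reads in IMQ + BZLF samples. In IMQ + BZLF replicate 4 Ly6g was within the range of the lesions under saline, which none of the 7 receptors was. The 4 most abundant genes of the list moved in different ways. Padi4, which encodes an enzyme that citrullinates histones, rose from 2.41 ± 0.872 FPKM in normal skin to 30.7 ± 4.89 under saline and stood at 37.7 ± 7.31 under BZLF. Itgb2 was not called in lesions (0.94, limma adjusted p = 0.0047) and fell by 1.72 with BZLF (limma adjusted p = 0.0033). Il1r2, a decoy receptor for interleukin 1, was the gene called lower in lesions, with 33.9 ± 9.06 FPKM in normal skin, 7.76 ± 0.990 under saline and 9.12 ± 2.52 under BZLF. The low-affinity Fc receptor gene Fcgr3 had 23.7 ± 3.25, 17.8 ± 4.23 and 13.9 ± 2.83 FPKM and was not called.

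**Figure D5:**
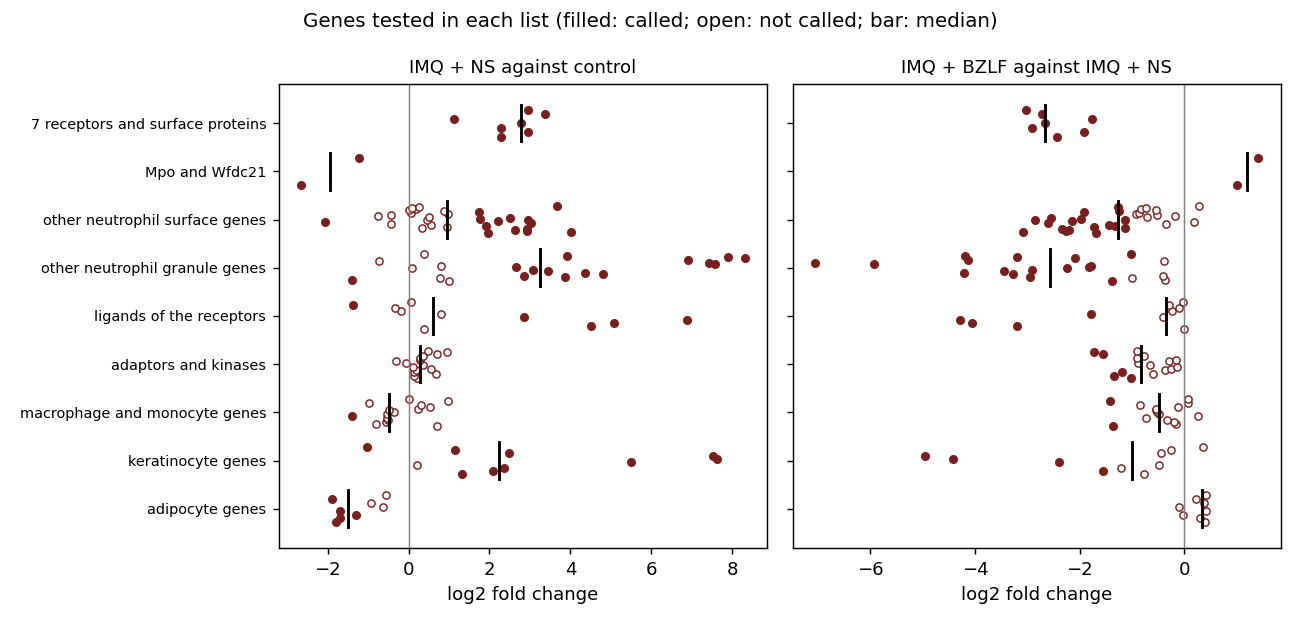
log2 fold change (x axis) of each tested gene of 9 gene lists (y axis), in IMQ + NS against control samples on the left and IMQ + BZLF against IMQ + NS samples on the right. Filled points are called, open points are not, and black bars are medians. Mpo and Wfdc21 lie on the other side of 0 from the receptors in both panels.

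The ligands of the receptors were read next, 10 of 14 with a test. In lesions 4 were called higher and 1 lower, with a median log2 fold change of 0.59. Those higher were the serum amyloid A genes Saa1, Saa2 and Saa3, ligands of Fpr2 that are similar enough to share reads, and Camp, whose cathelicidin peptide also binds Fpr2. Saa3 had 283, 715, 1018 and 321 FPKM in IMQ + NS samples against 1.94 to 6.97 in control samples, a log2 fold change of 6.89 (limma adjusted p = 1.6e-05). After BZLF it had 16.5 to 37.4 FPKM, lower than under saline by 4.28 (limma adjusted p = 0.0015) and higher than in control skin by 2.61 (limma adjusted p = 0.0013). Camp had 1.33 ± 0.518, 9.99 ± 3.2 and 7.53 ± 2.04 FPKM in the 3 groups and was not called with BZLF against saline (-0.40, limma adjusted p = 0.37). Saa1, Saa2, Saa3 and Pglyrp1, whose product is a ligand of Trem1, were the 4 genes called lower with BZLF against saline. The complement gene C3, whose fragment iC3b binds Mac-1, fell in lesions from 148 ± 55.2 to 56.3 ± 19.1 FPKM. Anxa1, a further Fpr2 ligand, had 351 ± 30.0, 457 ± 17.2 and 453 ± 23.1 FPKM, and Hmgb1 had 20.6 ± 6.73, 20.8 ± 1.69 and 20.5 ± 1.74 FPKM, with no call. Csf3, the ligand of Csf3r, had 0.0771 ± 0.0890 FPKM in IMQ + NS samples, was listed at 0 in all 4 controls and was too low to be tested.

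Among 16 adaptors and kinases below the receptors, no gene reached a log2 fold change of 1 in lesions in either direction. The highest was Itgb2 at 0.94 and the median was 0.28. Under BZLF against saline 5 were called lower, with a median of -0.83 over the list. They were Tyrobp (-1.03, limma adjusted p = 0.015), Fcer1g (-1.34, limma adjusted p = 0.0047), Card9 (-1.18, limma adjusted p = 0.021), Rac2 (-1.55, limma adjusted p = 0.0065) and Itgb2. Tyrobp and Fcer1g carry the signals of Trem1 and of Clec4d and Clec4e, Card9 acts further down, and Rac2 serves the oxidase and movement of neutrophils. Fcer1g had 71.9 ± 9.45 FPKM in normal skin, 79.4 ± 9.35 under saline and 31.8 ± 7.54 under BZLF, and Fcer1g and Card9 were also called lower than in control skin (-1.20 and -1.04). Tyrobp had 141 ± 18.1, 162 ± 25.8 and 80.6 ± 18.8 FPKM. The G protein subunit genes Gnai2 and Gnai3, at 216 ± 14.7 and 61.0 ± 8.26 FPKM in control skin, were not called in any comparison.

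The relatives of Mpo and Wfdc21 were read as well. Of the peroxidase genes, Lpo rose from 0.0554 ± 0.0534 to 2.19 ± 1.12 FPKM in lesions and had 0.0517 ± 0.0518 FPKM after BZLF, and it too passed the filter only through the IMQ + NS group. Pxdn had 14.4 ± 2.32, 14.1 ± 0.863 and 15.3 ± 3.66 FPKM, and Epx was too low to be tested. Of 10 tested genes with a WAP domain, Wfdc21 included, 2 were called higher and 4 lower in lesions. Slpi, the secretory leukocyte protease inhibitor, rose from 1.13 ± 0.329 to 25.2 ± 7.06 FPKM, and Wfdc18 rose as well. Wfdc1, Wfdc3 and Wfikkn2 fell with Wfdc21, but only Wfdc21 was called higher with BZLF against saline. Wfdc17, a near relative of Wfdc21, had 139 ± 18, 155 ± 41.2 and 89.9 ± 20.8 FPKM, and Wfdc12 had 8.52 ± 4.66, 15.8 ± 9.11 and 11.3 ± 7.60 FPKM.

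Genes with the most similar pattern over the 12 samples were found by the root mean square difference of log2 levels, each centred on its own mean, among the 12657 genes that averaged 1 FPKM or more. This is a description of samples in 3 groups, so that any gene with the same group means scores well. Closest to the mean of the 7 receptors were Sirpb1c (0.37), Cd300lf (0.39), Cxcl13 (0.40), Fgr (0.40) and Siglece (0.41), of which all but Cxcl13 are known from myeloid cells. Closest to Mpo were Igfbp5 (0.23), Adcy1 (0.24), Sparc (0.25), Pcolce (0.25) and Cers5 (0.26), and Sparc and Pcolce are known for the collagen matrix made by fibroblasts. Sparc had 7335 ± 1142 FPKM in normal skin, 1312 ± 265 under saline and 2312 ± 578 under BZLF. Closest to Wfdc21 were Lce1l (0.35), S100b (0.42), Nrep (0.44), Adh6a (0.44) and Rprml (0.48). The difference between Mpo and Wfdc21 was 0.87, and Wfdc21 ranked 2054 among the genes in order of their likeness to Mpo. In likeness to the mean of the receptors Wfdc21 ranked 11983 and Mpo 12252, so neither followed the receptors in these samples.

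The levels of other cell types moved between the groups as well. The collagen genes Col1a1 and Col1a2 fell with Mpo in lesions, from 4548 ± 894 to 1056 ± 196 and from 5592 ± 991 to 1184 ± 236 FPKM, and had 1886 ± 491 and 2184 ± 575 FPKM after BZLF. Adipocyte genes, of which 5 of 8 were called lower in lesions, summed to 4271 to 9318 FPKM per sample in normal skin, 2099 to 3298 under saline and 2862 to 3424 under BZLF. Cfd had 3159 ± 1127, 828 ± 227 and 951 ± 130 FPKM in the 3 groups, and Adipoq had 382 ± 159, 105 ± 19.5 and 138 ± 7.78 FPKM. Fabp4 and Lpl, at 2101 ± 528 and 332 ± 67.7 FPKM in normal skin, were not called. Between BZLF and saline the log2 fold changes of the 8 adipocyte genes lay between -0.10 and 0.42, within the fold limit, while Wfdc21 rose. Their part in the levels of Mpo and Wfdc21 was not tested.

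Keratinocyte genes rose with the receptors. In lesions 8 of 10 were called higher and 1, Lor, lower, and their sum was 2759 to 4071 FPKM in normal skin, 8014 to 12067 under saline and 3696 to 5541 under BZLF. Krt14 and Krt5, keratins of the basal layer, had 2100 ± 597 and 1652 ± 359 FPKM in lesions against 486 ± 70.6 and 657 ± 82.9 in control skin. Krt17 rose from 310 ± 188 to 1569 ± 306 FPKM, and Krt10, a keratin of the upper layers, had 1012 ± 369 and 1185 ± 488 FPKM with no call. Of the 15 macrophage and monocyte genes, 1 was called in lesions, Cd163, which fell, and the others had log2 fold changes from -0.98 to 0.97. Their median was -0.48, and their sum was 1009 to 1461 FPKM in normal skin, 742 to 1041 under saline and 511 to 717 under BZLF. The complement genes C1qa, C1qb and C1qc, made by macrophages, had 334 ± 69.0, 212 ± 34.5 and 260 ± 46.3 FPKM in control and 229 ± 36.4, 165 ± 20.2 and 186 ± 25.3 in IMQ + NS samples. With BZLF against saline 2 of the 15 were called lower, Adgre1 (-1.36, limma adjusted p = 0.0016) and Cx3cr1 (-1.42, limma adjusted p = 0.037). None of the 15 was at 0 in all samples of a group. Their part in the levels of Itgam, Clec4d and Clec4e was not tested.

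Dendritic cell genes were called lower in lesions for 4 of 8, led by Cd74 from 1146 ± 245 to 286 ± 32.2 FPKM and Cd209a from 40.2 ± 11 to 3.63 ± 1.2 FPKM. Cd207, with 15.2 ± 3.47 FPKM in normal skin and 8.11 ± 2.46 in lesions, was not called. Itgax and Flt3 moved against the list without a call, from 1.83 ± 0.289 to 2.80 ± 0.765 and from 0.652 ± 0.0463 to 0.756 ± 0.0950 FPKM. Mast cell and eosinophil genes were called lower for 2 of 9 and higher for 1, Prg2, which was listed at 0 in all controls. Kit also moved against the list, from 3.44 ± 1.25 to 6.40 ± 0.790 FPKM, without a call. Of the mast cell proteases Cpa3 and Cma1 fell, from 46.6 ± 9.51 to 22 ± 2.97 and from 67.2 ± 15.2 to 33.5 ± 9.21 FPKM, and Mcpt4 and Tpsb2, at 109 ± 23.3 and 43.5 ± 9.92 FPKM in normal skin, were not called. Sebaceous gland genes were called lower for 5 of 8, among them Scd3 from 135 ± 24.3 to 13.1 ± 7.84 FPKM and Mgst1 from 355 ± 82.1 to 153 ± 4.57 FPKM. Scd1, with 694 ± 186 FPKM in normal skin and 362 ± 69.8 in lesions, was not called. Elovl3 and Soat1 moved against the list without a call, from 46.9 ± 4.71 to 92.7 ± 27.1 and from 11.2 ± 1.74 to 15.9 ± 2.55 FPKM. Of the red cell genes 3 of 6 were called lower, Hba-a1, Hbb-bs and Hbb-bt, and Slc4a1 higher, and the list summed to 236 to 705 FPKM in normal skin and 185 to 241 FPKM under saline. Hbb-bs had 217 ± 76.8 and 99.5 ± 11.8 FPKM, and Hba-a2, at 50.8 ± 22.4 and 23.9 ± 4.51 FPKM, was not called. Under BZLF against saline Itgax, which was lower, was the only gene called in these 4 lists. Their part in the levels of the 9 genes was not tested.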

How the data were processed

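RNA-seq of back skin was analysed in 4 control, 4 IMQ + NS and 4 IMQ + BZLF samples. The authors deposited FPKM values, 1 per gene and sample, not pooled and not on a log scale. The study's methods name Bowtie2 against mRNA and lncRNA transcripts and eXpress, whereas the submitters' processing notes name fastp, HISAT2, HTSeq, R 3.2.0 and mm10, and the kits given for extraction and library also differ between the sources. How strand and near copies were counted is therefore not settled here.

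From these values, whole reads were recovered (within 0.02 of a whole number) for 18504 of 18505 genes, or 99.99%. Intervals from reads cover counting error only. limma 3.58.1 in R 4.3.3 was run on log2(FPKM + 0.1) for each pair of groups, since a count test is not the main test for FPKM. As an alternative chosen after the data were seen, limma-voom on the recovered reads called 1811 genes higher and 1979 lower in IMQ + NS against control samples, and 60 and 293 with BZLF against saline. The other alternatives changed the constant, the filter, the scaling, the samples in the fit, the variance model, the block and the p, or left out 1 sample. Figures used Python 3.11.15, pandas 2.3.3 and matplotlib 3.10.9. The tests were tried on simulated data first.

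The 9 genes and all gene lists were chosen with earlier results of these data known. Named are the 9 genes, the 4 most abundant genes of each list, every called ligand and adaptor, genes that moved against their list, and the 5 nearest patterns. Ly6g was added as a defining marker, and further single genes were named after their values were seen. Some genes of the lists are left out of the text.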

Additional observations from a re-analysis of the deposited data

How the results depend on the processing

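In IMQ + NS against control samples, 183 of 187 values of the 9 genes kept direction and call over the alternatives. The exceptions were Trem1 with a constant of 1 (0.77) and Itgam with equal sums (0.99), quantile normalization (0.99) or without control replicate 4 (0.98). With BZLF against saline 162 of 187 kept both and 25 lost the call, all from Clec4d, Mpo, Wfdc21 and, with a constant of 1, Trem1 (-0.76). The number of the 9 genes called higher there, 2 as reported, was 1 with a constant of 1, with no filter, with variances without a trend and with the replicate block, and ran from 0 to 2 when 1 sample was left out, with 0 without IMQ + NS replicate 3 or 4 or IMQ + BZLF replicate 2. In IMQ + BZLF against control samples the number called higher, 0 as reported, was 1 with median ratio scaling, quantile normalization, all 12 samples in one fit or the unadjusted p, and 0 to 2 when 1 sample was left out. The gene was Fpr1 each time, with Clec4d added in the last case.

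Over all genes, a constant of 1 gave 1023 lower in lesions (1678 as reported), 17 higher and 188 lower with BZLF against saline (49 and 336), and 979 higher and 865 lower in IMQ + BZLF against control samples (1475 and 1542). The 49 became 88 with the unadjusted p and 19 to 78 when 1 sample was left out, with 19 without IMQ + BZLF replicate 2, 25 and 29 without IMQ + NS replicate 3 and 4, and 78 without IMQ + BZLF replicate 1. The cause was not tested.

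Uncalled log2 fold changes in IMQ + BZLF against control samples changed sign for 3 genes when 1 sample was left out. They ran from -0.274 to 0.0686 for Csf3r, from -0.349 to 0.202 for Clec4e and from -0.0811 to 0.352 for Wfdc21. Equal sums moved the median of all genes in this comparison from -0.02 to -0.12.

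Deviations of same-numbered samples correlated at 0.111 to 0.26 for replicates 3 and 4 and at -0.152 to 0.0943 for replicates 1 and 2. Since not every pair was over 0.1, the numbers were not taken to pair the samples, and the replicate block was read only as a setting. Beside Wfdc21 with BZLF against saline (limma adjusted p = 0.067), it changed no call of the 9 genes. A filter at a mean of 1 FPKM left Trem1 and Clec4e untested. With 0 to 4 reads of Trem1 per control sample, its fold change cannot be given closely.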
